A study of Rattus norvegicus with 4 samples.

Results

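This report describes genes that sense, make or move bile acids and sterols in surface colonocytes of the rat distal colon: the bile acid receptor gene Nr1h4, the sterol 27-hydroxylase gene Cyp27a1 and genes for related receptors and transporters. Of 10 listed genes, 9 had a row with a single gene symbol among the 19403 rows of the arrays, which cover 13215 genes in such rows, and the row of highest mean was to be taken for each gene. The remaining gene, Slc51b, which encodes the beta subunit of a bile acid exporter, was not matched to a row and is not analysed here. Nr1h4 and Cyp27a1 were selected on their difference between aldosterone and vehicle in these same arrays, and the others were added for their function. The values of those 2 genes are therefore given as a description, without a test.

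All 4 animals were adrenalectomized Wistar rats aged 12 weeks, used 4 days after surgery and kept on drinking water with 0.9% NaCl. In the aldosterone group, 2 rats received 50 µg of the hormone per 100 g body weight under the skin and a minipump delivering 10 µg/kg per hour. The 2 vehicle rats had the same injection and pump without the hormone. Treatment lasted 2 h, after which the inverted colons were shaken for 40 min, with 100 nM aldosterone for the first group and vehicle for the second. Adrenalectomy takes away the main source of aldosterone and of corticosterone, in both groups. Each rat gave 1 Affymetrix exon array. Levels are log2 values as deposited, a unit of 1 being a doubling, and differences are aldosterone minus vehicle. The number of arrays limits the precision.

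Bile acids are made from cholesterol in the liver, through a pathway opened by 7-alpha-hydroxylation or by sterol 27-hydroxylation, and what escapes uptake in the ileum reaches the colon. The nuclear receptor FXR, encoded by Nr1h4, senses bile acids and in the ileum and liver raises the repressor gene Nr0b2, the ileal carrier gene Fabp6 and the exporter genes Slc51a and Slc51b. Oxysterols, among them 27-hydroxycholesterol, activate liver X receptors, which raise cholesterol exporters such as Abca1 and Abcg1. PXR, encoded by Nr1i2, responds to secondary bile acids and foreign compounds.

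The cells carried the markers of surface colonocytes: all 8 measured genes of that list had a mean of 4 or more. Their summed level was 90.0 and 90.1 in the aldosterone arrays and 88.2 and 89.0 in the vehicle arrays, so the sums did not overlap. Slc26a3, Krt20, Aqp8, Cdhr5 and Epcam were higher in both aldosterone arrays than in both vehicle arrays, where 16.7% of all rows were. The groups of Car4, Guca2a and Krt8 overlapped. Slc26a3, named after its values were seen, read 12.75 and 12.61 against 11.96 and 12.3 (adjusted p 0.948 in limma). The median of all row means was 2.35, and values near it are treated here as the floor. A mean of 4 or more was reached by 1 of 9 measured macrophage markers, 1 of 8 enteroendocrine, 0 of 4 lymphocyte, 0 of 7 fibroblast and smooth muscle, 0 of 6 proliferating crypt and 1 of 4 ileal enterocyte markers. The ileal one was Fabp2, named after its values were seen. It read 4.25 and 4.74 in the aldosterone arrays against 3.65 and 3.77 in the vehicle arrays (adjusted p 0.891 in limma). The other measured ileal markers lay below 2.35. A mean of 4 or more was also reached by all 3 measured goblet cell markers. Their summed level was 23.5 and 27.9 in the aldosterone arrays against 24.2 and 23.1 in the vehicle arrays. Among them Zg16, named after its values were seen, read 6.39 and 8.06 against 5.14 and 4.45. The groups of Tff3 and Agr2 overlapped. Tff3 read 9.44 and 11.3 against 11.12 and 10.74, and Agr2 7.69 and 8.52 against 7.89 and 7.91. The part of goblet cells, or of the higher surface colonocyte sum, in the results that follow was not tested. In such bulk RNA, fewer cells of a type and less RNA per cell cannot be told apart. Array medians ran from 2.22 to 2.44, and correlations between arrays over all rows from 0.982 to 0.987.

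Cyp27a1 encodes the mitochondrial enzyme that puts a hydroxyl group on the side chain of cholesterol, the step that makes 27-hydroxycholesterol. Its row (7356120) read 8.53 and 8.75 in the aldosterone arrays, against 6.35 and 6.51 in the vehicle arrays. Both aldosterone values lay above both vehicle values. The means were 8.64 ± 0.16 and 6.43 ± 0.12 (SD, n = 2 each), a log2 difference of 2.21 or 4.63-fold. With any 1 array left out the difference lay between 2.10 and 2.32.

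Nr1h4 encodes FXR itself. Its row (7323604) read 6.58 and 6.37 in the aldosterone arrays, against 5.20 and 5.13 in the vehicle arrays. The groups did not overlap, and the means of 6.48 ± 0.15 and 5.16 ± 0.055 (SD, n = 2 each) differed by 1.31 on the log2 scale or 2.48-fold. With any 1 array left out the difference lay between 1.21 and 1.42.

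**Figure D1:**
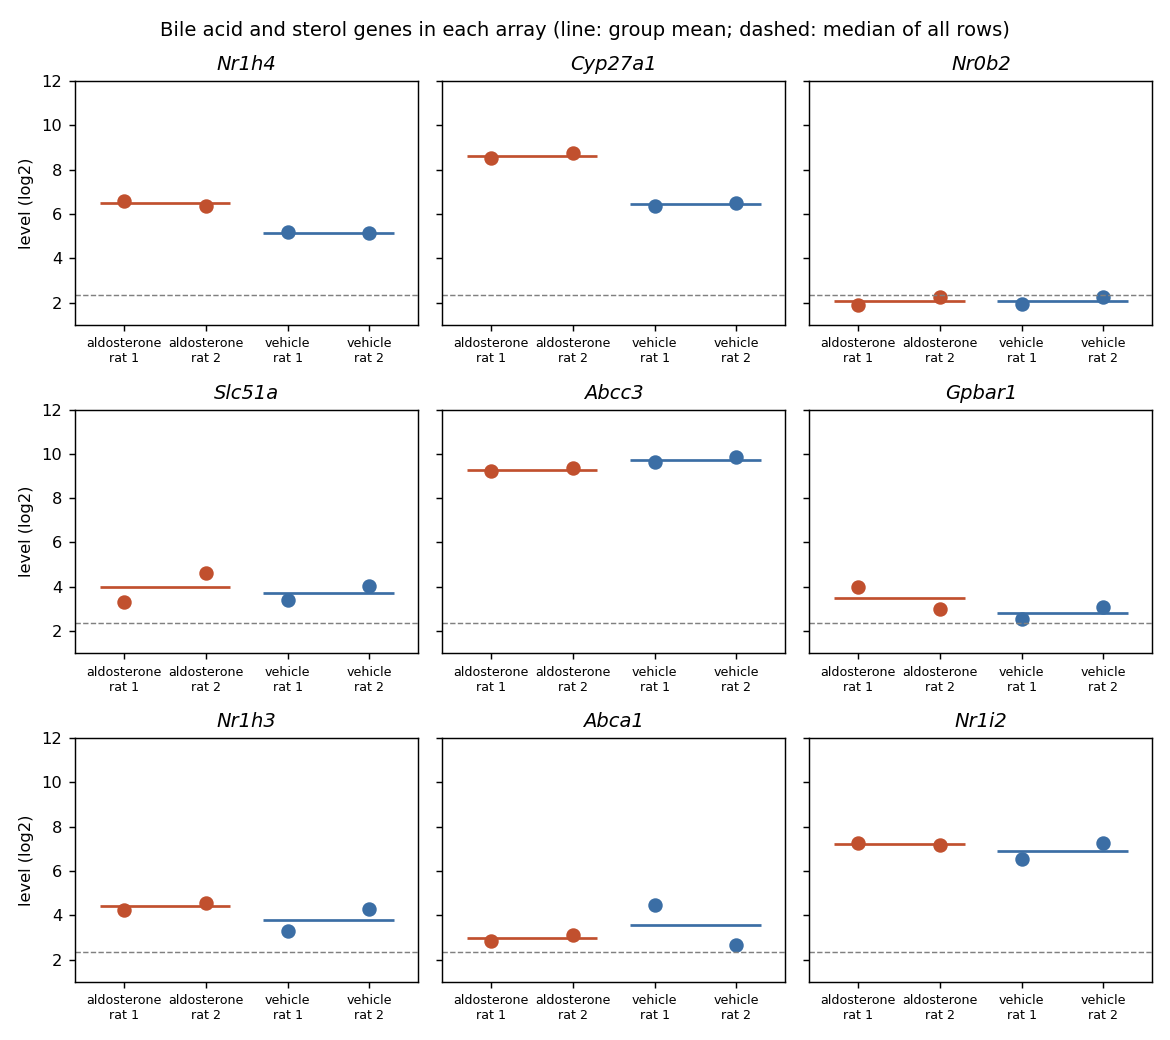
Level (log2, y axis) of each of the 9 measured genes in each array (x axis); points are single arrays, solid lines group means and the dashed line the median of all row means, 2.35. In Cyp27a1 and Nr1h4 both aldosterone points sit above both vehicle points, in Abcc3 both sit below, and in the other 6 genes the groups overlap.

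The promoter window of Cyp27a1 is shown because this gene had the widest difference of the 9. It covers 250 bases before to 50 bases after a transcription start (RefSeq, GRCr8, chr9:83713282-83713581, plus strand). Capitals mark the hexamer AGGTCA, on either strand, which is the core read by FXR, liver X receptors, PXR and many other nuclear receptors.
Cyp27a1: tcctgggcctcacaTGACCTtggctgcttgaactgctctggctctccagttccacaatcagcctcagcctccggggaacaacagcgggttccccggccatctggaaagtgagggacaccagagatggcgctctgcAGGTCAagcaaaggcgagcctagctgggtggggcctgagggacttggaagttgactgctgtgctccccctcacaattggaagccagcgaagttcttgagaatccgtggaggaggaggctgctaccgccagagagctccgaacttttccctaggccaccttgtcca
The hexamer occurred 2 times, starting 236 and 115 bases before the start. Windows were found for 8 of the 10 listed genes, and AGGTCA occurred in those of Cyp27a1 and Slc51b. It occurred in 16.2% of all 33469 windows of the same length. None of the 8 windows held 2 such hexamers as an inverted repeat spaced by 1 base, the arrangement FXR prefers (AGGTCANTGACCT), which 0.0269% of all windows held. The core read by the mineralocorticoid and glucocorticoid receptors, AGAACA, occurred in the windows of Abca1, Nr1i2 and Slc51a and in 20.7% of all windows. Its palindrome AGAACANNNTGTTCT occurred in none of the 8 and in 0.0149% of all. These are matches of letters within a short window.

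Among the genes whose 4 values were most like those of Cyp27a1 were Tsc22d3 and Sgk1, both known to respond to corticosteroids. Likeness was the Euclidean distance between values centred on each gene's own mean over the 4 arrays, among 4131 other genes with a mean of 4 or more. Tsc22d3, the gene of the leucine zipper protein GILZ, was closest at a distance of 0.198. Sgk1, the kinase gene that aldosterone is known to induce, followed at 0.309, and Noct, which encodes the phosphatase nocturnin, at 0.311. Nr1h4 ranked 21 in that order, at 0.964. For Nr1h4 the closest were Dclre1b, a DNA repair nuclease gene, at 0.148, the amino acid transporter gene Slc38a1 at 0.172 and Ube2f, which encodes a NEDD8-conjugating enzyme, at 0.195. With only 4 arrays and the treatment as their main contrast, these distances describe the arrays and carry no test. Cyp27a1 and Nr1h4 were selected on that contrast, so their closest genes had to be ones with a similar difference. The known hormone response of Tsc22d3 and Sgk1 is background, and nothing about Cyp27a1 is read from it.

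Of the genes that FXR is known to raise in the ileum and liver, Nr0b2 and Slc51a had groups that overlapped. Nr0b2, which encodes the repressor SHP, read 1.88 and 2.26 in the aldosterone arrays against 1.93 and 2.26 in the vehicle arrays. All 4 values lay below 2.35, so this row was near the floor in every rat, and the 95% interval of its difference ran from -0.58 to 0.53. Slc51a, the alpha subunit gene of the basolateral bile acid exporter, read 3.32 and 4.63 in the aldosterone arrays against 3.42 and 4.02 in the vehicle arrays. The aldosterone values enclosed the vehicle values, and the interval ran from -1.15 to 1.67. In limma, Benjamini-Hochberg adjusted p = 1.00 for both genes.

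Abcc3, which encodes a basolateral exporter of conjugated bile acids and glucuronides, was the only measured gene of the 9 whose aldosterone values both lay below the vehicle values. It read 9.24 and 9.34 in the aldosterone arrays against 9.63 and 9.84 in the vehicle arrays. The means were 9.29 ± 0.073 and 9.74 ± 0.15 (SD, n = 2 each), a difference of -0.45 with a 95% interval from -0.79 to -0.10. The unadjusted p was 0.0226 in limma and the adjusted p 0.932, so the difference did not pass the threshold of 0.05. Gpbar1, the cell surface bile acid receptor gene known as TGR5, read 3.97 and 2.98 in the aldosterone arrays against 2.53 and 3.08 in the vehicle arrays. These groups overlapped, and the interval ran from -0.45 to 1.78 (adjusted p of 1.00 in limma). Enteroendocrine cells are known to carry Gpbar1, and the summed level of their 8 measured markers was 22.4 and 23.3 in the aldosterone arrays against 21.9 and 23.9 in the vehicle arrays. The defining marker Chga lay near the floor, at 2.21 and 2.24 against 2.10 and 2.26. The only one with a mean of 4 or more, the hormone gene Cck, named after its values were seen, read 5.99 and 6.29 against 6.59 and 6.81 (difference -0.57, interval -1.01 to -0.12, adjusted p 0.935 in limma). The part of these cells in the Gpbar1 values was not tested.

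**Figure D2:**
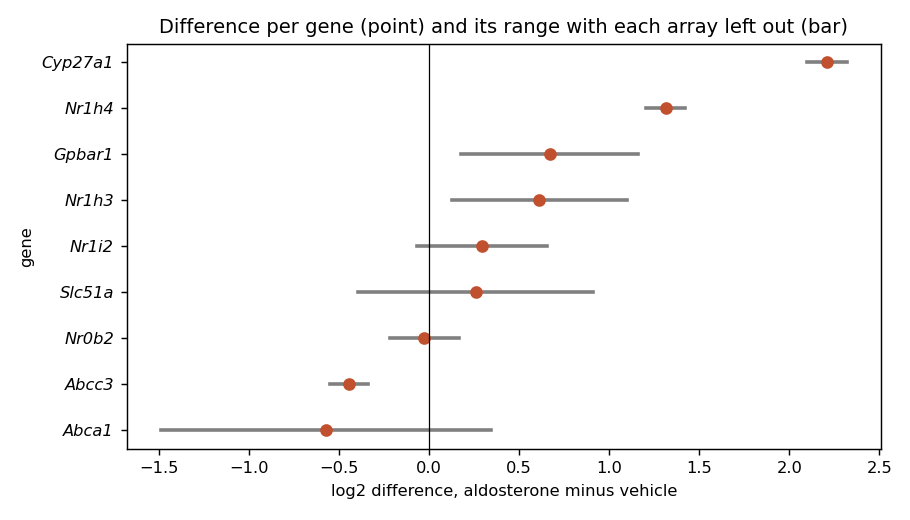
Log2 difference, aldosterone minus vehicle (x axis), for each of the 9 genes (y axis); points use all 4 arrays and bars run from the lowest to the highest value with 1 array left out. The bars of Cyp27a1 (2.10 to 2.32) and Nr1h4 (1.21 to 1.42) are short, and those of Abca1 (-1.49 to 0.34), Nr1i2, Slc51a and Nr0b2 cross 0.

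Among the receptors for oxysterols and foreign compounds, Nr1h3, the gene of liver X receptor alpha, read 4.24 and 4.57 in the aldosterone arrays against 3.31 and 4.28 in the vehicle arrays. Its lowest value was that of vehicle rat 1, and the aldosterone mean exceeded the value of vehicle rat 2 by 0.13. The interval of the difference ran from -0.40 to 1.63. Nr1i2 read 7.24 and 7.17 in the aldosterone arrays against 6.55 and 7.27 in the vehicle arrays, again with vehicle rat 1 lowest. Its interval ran from -0.45 to 1.04. The adjusted p in limma was 1.00 for Nr1h3 and for Nr1i2.

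Abca1, the exporter gene that loads cholesterol onto apolipoproteins, was set apart by vehicle rat 1. It read 2.84 and 3.11 in the aldosterone arrays against 4.47 and 2.64 in the vehicle arrays. The difference was -0.57 with an interval from -2.37 to 1.22 (adjusted p of 1.00 in limma), and 0.34 without vehicle rat 1. The same array was high for 2 other known liver X receptor targets, named after their values were seen. Abcg1, the exporter gene that passes cholesterol to lipoproteins, read 2.54 and 3.33 in the aldosterone arrays against 5.44 and 2.71 in the vehicle arrays. Mylip, which encodes the ligase that degrades the LDL receptor, read 4.12 and 4.58 against 5.94 and 4.24. Abca1, Abcg1 and Mylip were thus 1.36, 2.11 and 1.36 log2 units above the next highest array. Other genes listed as liver X receptor targets did not stand apart in this way. In vehicle rat 1, Srebf1 read 4.85 against 4.71 in vehicle rat 2, and Lpcat3 8.46 against 7.95. Abcg5, Abcg8 and Apoe were lowest in vehicle rat 1, at 1.97, 1.83 and 2.85, but only slightly. In the other arrays Abcg5 read 2.01 to 2.16, Abcg8 1.92 to 2.03 and Apoe 2.91 to 3.13. Abcg5 and Abcg8 were thus near the floor in every rat. Over the whole table, 41 rows (0.211%) stood at least 1 unit above the 3 other arrays in vehicle rat 1, and between 22 and 44 rows did so in each of the others. Nr1h3 ran the other way, lowest in vehicle rat 1.

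Macrophages are known for strong expression of these exporters. Of 9 measured macrophage markers, 7 lay below 2.35, and their summed log2 level was 21.4 and 21.7 in the aldosterone arrays and 21.1 in vehicle rat 1 and 23.0 in vehicle rat 2. The defining marker Csf1r lay at 2.10 and 2.25 in the aldosterone arrays, 2.05 in vehicle rat 1 and 2.27 in vehicle rat 2. The only macrophage marker with a mean of 4 or more, Mrc1, named after its values were seen, read 4.01 and 3.53 in the aldosterone arrays, 4.55 in vehicle rat 1 and 4.73 in vehicle rat 2. Its groups did not overlap (difference -0.87, interval -1.43 to -0.31, adjusted p 0.853 in limma). Those of Marco, Cd68 and Adgre1 did not overlap either but ran the other way, higher with aldosterone. Marco read 2.76 and 2.9 in the aldosterone arrays against 2.42 and 2.67 in the vehicle arrays, and Cd68 and Adgre1 lay below 2.35. The groups of the other macrophage markers overlapped. The leukocyte gene Ptprc read 2.46 and 2.44 in the aldosterone arrays, 3.23 in vehicle rat 1 and 2.43 in vehicle rat 2. The other measured lymphocyte markers did not share this. Cd3d read 1.77 in vehicle rat 1 and 1.83 to 1.94 in the other arrays. Cd79b read 2.95 there against 2.86 to 3.82, and Ms4a1 2.03 against 1.8 to 2.02. The part of macrophages or other leukocytes in the Abca1 values was not tested.

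**Figure D3:**
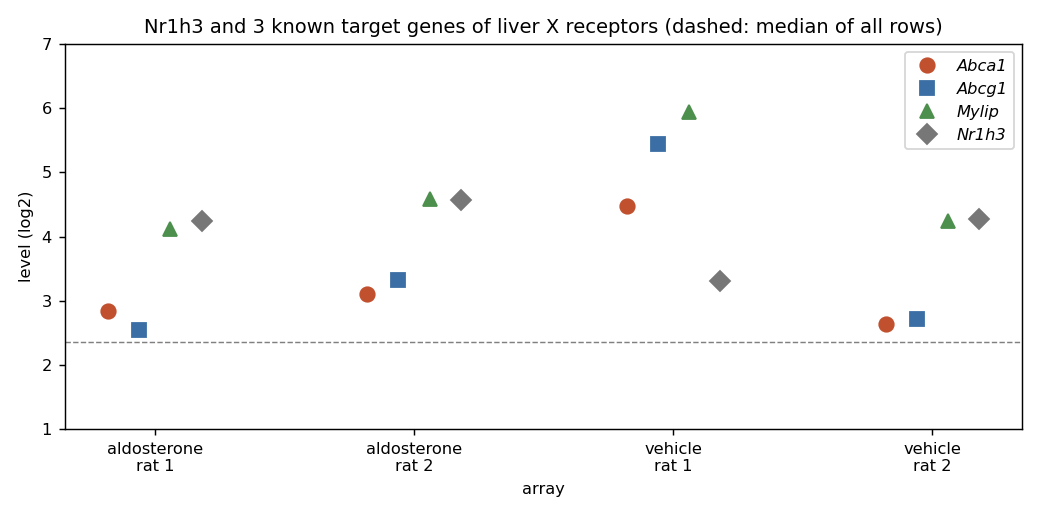
Level (log2, y axis) of Abca1, Abcg1, Mylip and Nr1h3 in the 4 arrays (x axis), with the median of all row means, 2.35, dashed. Abca1, Abcg1 and Mylip are highest in vehicle rat 1 (4.47, 5.44 and 5.94), where Nr1h3 is lowest (3.31).

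The promoter window of Abca1 is shown because Abca1 is known in human and mouse cells for a liver X receptor element near its start (RefSeq, GRCr8, chr5:72596424-72596723, minus strand, 250 bases before to 50 after the start). Capitals mark a match, on the strand opposite to the gene, to a relaxed form of 2 receptor cores in direct repeat spaced by 4 bases, spelled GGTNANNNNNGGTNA.
Abca1: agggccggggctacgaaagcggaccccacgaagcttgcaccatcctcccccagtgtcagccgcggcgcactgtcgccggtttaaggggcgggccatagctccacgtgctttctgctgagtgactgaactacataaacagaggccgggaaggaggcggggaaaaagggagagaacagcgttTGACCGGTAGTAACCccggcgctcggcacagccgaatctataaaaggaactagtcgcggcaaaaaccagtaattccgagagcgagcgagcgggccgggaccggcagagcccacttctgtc
The match began 70 bases before the start. Of the 8 windows, only that of Abca1 held this motif on either strand, as did 0.675% of all 33469 windows. The strict form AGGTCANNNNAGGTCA occurred in none of the 8 and in 0.00598% of all.

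Across the 9 genes, 2 were higher in both aldosterone rats than in both vehicle rats, against 16.7% of all rows, and 1 was lower, against 11.1% of all rows. The 2 higher genes are those selected on this contrast, so nothing is read from their count. Of the other 7, none passed an adjusted p of 0.05 in limma, where 0% of the 19403 rows passed. An unadjusted p under 0.05 was reached by 1 of the 7, Abcc3, against 4.53% of rows. With a prior variance that follows the level of a row (intensity trend), 0 of the 7 passed, against 0.108% of rows. The median difference of the 7 was 0.257, beside 0.0239 over all rows. Of all rows 65.0% had a mean below 3, as did only Nr0b2 of the 7, so these medians cover unlike levels. The differences of Nr0b2, Slc51a, Abca1 and Nr1i2 also changed sign with an array left out. No shift of the 7 is read from the medians.

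**Figure D4:**
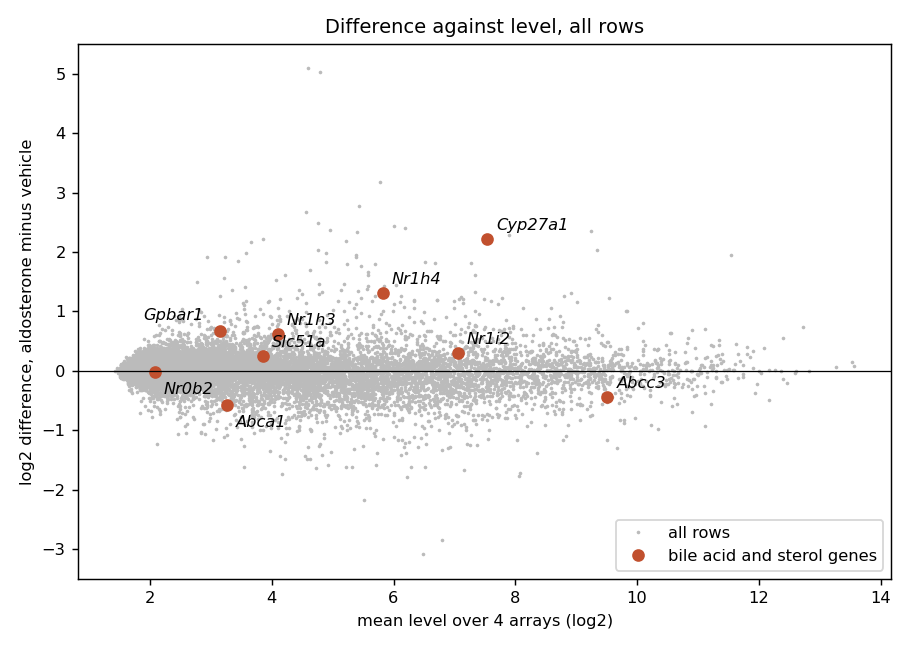
Log2 difference, aldosterone minus vehicle (y axis), against mean level over the 4 arrays (x axis) for all 19403 rows (grey) and the 9 genes (orange). Cyp27a1 (2.21) and Nr1h4 (1.31) lie above the band of most rows, while the other 7 genes lie between -0.57 and 0.67.

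Other genes of these pathways were followed in 6 lists, with 72 of 101 listed genes measured. None of the 72 passed an adjusted p of 0.05 in limma in either direction (lowest adjusted p 0.630), and none passed with the intensity trend (lowest 0.195). At an unadjusted p under 0.05 there were 6 of the 72 (8.33%), against 4.53% of all rows. Both aldosterone values lay above both vehicle values in 6 genes and below them in 9, where 16.7% and 11.1% of all rows did.

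In the list of FXR and enterohepatic bile acid genes, 8 of 11 measured genes lay below 2.35 on average. Fabp6, the ileal bile acid carrier gene, read 1.81 and 1.82 in the aldosterone arrays against 1.71 and 1.78 in the vehicle arrays. Slc10a2, the gene of the apical bile acid importer of the ileum, read 1.81 and 1.95 against 1.85 and 1.68. Both rows stayed near the floor, and the groups of Fabp6 did not overlap (interval of the difference -0.20 to 0.34). Sdc1, which encodes the heparan sulfate proteoglycan syndecan-1 and is a known FXR target in human liver cells, read 7.31 and 7.32 against 8.25 and 7.96 (difference -0.78, interval -1.17 to -0.40, adjusted p 0.735 in limma). Fgfr4, the receptor gene for the FXR-induced hormone Fgf15, lay at 2.96 ± 0.12 against 2.78 ± 0.21. Abcb4, a phospholipid exporter gene of the liver, lay near the floor at 2.36 ± 0.063 against 2.46 ± 0.16. The list median was 0.036.

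Among 12 measured genes of bile acid synthesis, 6 lay below 2.35, among them Cyp7a1, the enzyme gene that opens the classical pathway, at 2.51 and 2.00 against 2.01 and 2.31. Akr1c14, the gene of a 3-alpha-hydroxysteroid dehydrogenase that acts on steroids and bile acids, read 5.53 and 5.47 in the aldosterone arrays against 4.29 and 3.80 in the vehicle arrays. Its groups did not overlap. The difference was 1.46 (2.75-fold, interval 0.92 to 1.99), with an adjusted p of 0.630 in limma. Hsd3b7 and Hsd17b4, enzyme genes of steroid ring and side chain processing in this pathway, lay at 4.62 ± 0.45 against 4.42 ± 0.035 and at 5.47 ± 0.046 against 5.42 ± 0.020. Ch25h, the cholesterol 25-hydroxylase gene, lay near the floor at 1.99 ± 0.034 against 2.09 ± 0.019. The list median was 0.038.

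Cyp27a1 draws electrons from ferredoxin, encoded by Fdx1, in the mitochondrion. Fdx1 read 3.42 and 3.84 in the aldosterone arrays against 3.43 and 3.39 in the vehicle arrays (interval of the difference -0.27 to 0.70). Star, which carries cholesterol into mitochondria of steroid-making cells, Cyp2r1, a vitamin D 25-hydroxylase gene, and Cyp24a1, which inactivates vitamin D, all had group means between 1.70 and 2.57. Vdr, the vitamin D receptor gene, read 9.21 and 9.24 against 9.64 and 8.86. The 8 measured genes of this list had a median of -0.032.

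The 18 measured genes of liver X receptor response and cholesterol movement had a median difference of -0.041. Scarb1, the gene of the HDL receptor SR-BI, read 6.01 and 5.44 in the aldosterone arrays against 6.49 and 6.62 in the vehicle arrays (difference -0.83, interval -1.45 to -0.21, adjusted p 0.909 in limma). Abca7, a relative of Abca1, lay at 5.40 ± 0.13 against 5.87 ± 0.17 (difference -0.47, adjusted p 0.993 in limma). Srebf1, the lipogenic transcription factor gene known as a liver X receptor target, lay at 4.40 ± 0.21 against 4.78 ± 0.099, and its groups did not overlap. Npc1, which lets cholesterol leave lysosomes, read 8.68 and 7.60 against 7.67 and 7.28. The second receptor gene, Nr1h2, read 7.10 and 7.54 against 7.29 and 7.42.

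Among 10 measured genes of PXR and its relative CAR, the median was -0.11. Gstm1, a glutathione transferase gene, read 6.06 and 5.95 in the aldosterone arrays against 6.38 and 6.50 in the vehicle arrays (difference -0.44, interval -0.74 to -0.13, adjusted p 0.886 in limma). Nr1i3, which encodes CAR, read 4.50 and 4.62 against 4.82 and 5.49. The drug efflux pump genes Abcb1b and Abcg2 had intervals that included 0. Of 13 measured partners and coregulators, Nr5a2, the gene of the receptor LRH-1, read 6.51 and 6.72 against 6.30 and 6.03 (difference 0.45, interval 0.031 to 0.87, adjusted p 1.00 in limma). Ppargc1b, a coactivator gene of mitochondrial metabolism, read 6.41 and 5.25 against 4.78 and 4.59, and Ncoa3, a coactivator gene of nuclear receptors, 5.94 and 5.88 against 6.93 and 6.27. Neither pair of groups overlapped, and neither gene passed the threshold. Rxra and Rxrb, genes of the shared dimer partners, read 6.97 and 6.93 against 7.50 and 6.96, and 3.50 and 4.05 against 4.17 and 4.15. The median of the partner list was -0.049.

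**Figure D5:**
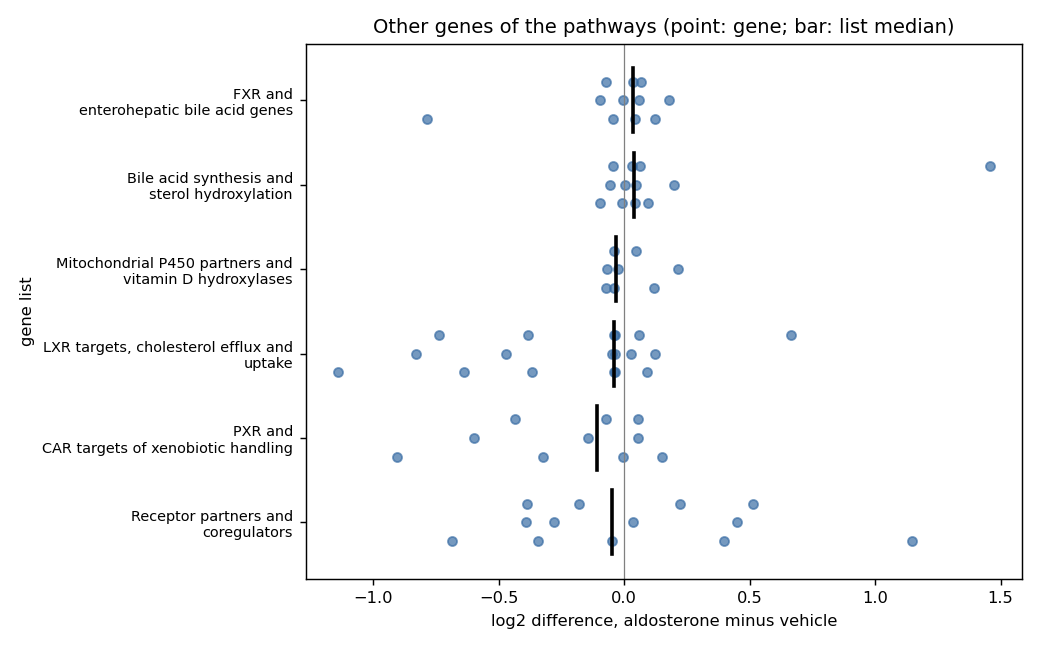
Log2 difference, aldosterone minus vehicle (x axis), of the 72 measured genes in 6 pathway lists (y axis); each point is a gene, and the black bar is the list median. Medians lie between -0.11 and 0.038, with Akr1c14 (1.46) farthest to the right and Abcg1 (-1.14) farthest to the left.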

How the data were processed

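Gene expression was measured on Affymetrix exon arrays in surface colonocytes of 4 rats, 2 per group, with ribosomal RNA reduced before labelling, per the labels. The deposited values are log2 expression per row, and the submitters' processing notes name RMA, Affymetrix Expression Console and Partek without versions or order. The log2 scale was read from the range, 1.36 to 13.7. The genome build is not given in the sources used here. Detection calls were not used. Rows were named from the platform annotation, which gives 13327 rows 1 symbol, 620 several and 5456 none. Every measured gene described had 1 row. Differences were fitted over all 19403 rows in R 4.3.3 by the lmFit and eBayes steps of limma 3.58.1, with treatment as the only term, a constant prior variance, two-sided tests and Benjamini-Hochberg adjustment (threshold 0.05). The fit was tested on simulated data with the same spread in every row. The spread of the real rows differs, so that test does not show how the fit performs on them. Intervals are 95% intervals of that fit. The labels call the arrays of a group biological replicates. The genes and lists were chosen with earlier results of these data known. Named are the listed genes, the 4 genes of smallest p in each pathway list, the 3 of most similar values to Nr1h4 and to Cyp27a1, and others only as background or as marked. Alternatives covered normalization, filters, the prior, the replicate block and each array left out. Promoter windows are from RefSeq (GRCr8), and motifs were searched on both strands. Tables and plots used Python 3.11.15, pandas 2.3.3 and matplotlib 3.10.9.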

Additional observations from a re-analysis of the deposited data

How the results depend on the processing

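The differences of Cyp27a1 and Nr1h4 ran from 2.10 to 2.32 and from 1.21 to 1.42 over the alternatives, where the choice of these genes fixes the direction. Those of Gpbar1 and Nr1h3 kept theirs under all alternatives that gave a value, as did that of Abcc3, whose groups do not overlap. Others changed sign with an array left out: Nr0b2 ran from -0.22 to 0.16, Slc51a from -0.40 to 0.91, Abca1 from -1.49 to 0.34, Nr1i2 from -0.069 to 0.66, Abcb4 from -0.21 to 0.017, Hsd3b7 from -0.12 to 0.51, Cyp24a1 from -0.19 to 0.052, Star from -0.037 to 0.13, Abcb1b from -0.066 to 0.37 and Abcg2 from -0.82 to 0.17. With arrays centred on their medians Hsd17b4 turned to -0.0098 and Star to -0.0103, and with quantile normalization Star turned to -0.0097. In all, 16 of 441 combinations of gene and alternative reversed, over 39 genes. The filters, the replicate block and the mean over a gene's rows left each difference unchanged, so these combinations could not reverse. The 39 also include Cyp27a1, Nr1h4 and the genes chosen for values like theirs, so no share is read from this count. Abcg1 and Mylip, which are not among the 39, stood at 0.22 and 0.12 without vehicle rat 1.

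The count of rows past an adjusted p of 0.05 was 0 with the constant prior and 21 with the intensity trend. It was 1 with rows below the median or below a mean of 3 left out, and 12 with a cut at 4. Tsc22d3, Sgk1 and Noct were among those 12 rows. They were named for values like those of Cyp27a1, a gene selected on this contrast, so nothing is read from their passing. The count was 0 with the replicate block, which uses the replicate numbers of the labels, and 6 with the trend and the block together. With the trend it was 137 and 142 without aldosterone rat 1 or 2, and 7 and 8 without vehicle rat 1 or 2. The trend fits with the block or with an array left out were added after seeing the data. A lone array gives no spread of its own, so the spread comes from the other group and from the prior. Of the pathway genes, 0 passed in all these fits except the trend fit without aldosterone rat 2, where 3 did (Abcg1, Aldh1a1 and Ppargc1b). The vehicle values of Abcg1, 5.44 and 2.71 (SD 1.93), lie far apart beside its difference of -1.53 in that fit. The spread of its own row thus does not give that call, which leans on the prior. The cause for Aldh1a1 and Ppargc1b was not tested. Same-numbered rats deviated together only weakly (correlation 0.148 over all rows), and nothing in the labels pairs them. The count of the 9 genes with both aldosterone values above both vehicle values, 2, ran from 3 to 5 with an array left out, and that with both below, 1, ran from 1 to 3, since fewer values overlap less often.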

Other observations

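Aldosterone rat 1 stood apart in 5 genes of the pathway lists by at least 1 log2 unit from the 3 other arrays. Npc1 and Ppargc1b were higher there, at 8.68 and 6.41. Lpcat3, a phospholipid remodelling gene, read 6.89 there, and 8.24 in aldosterone rat 2 against 8.46 and 7.95 in the vehicle rats. Soat1, the cholesterol ester synthase gene, read 3.68 there, and 5.40 in aldosterone rat 2 against 4.98 and 4.83. Aldh1a1, a retinal dehydrogenase gene, read 6.35 there, and 9.69 in aldosterone rat 2 against 8.53 and 9.33. Of all rows, 44 were above and 41 below the other arrays by this margin in that rat. These 5 genes were picked out after their values were seen.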
